A study of Mus musculus with 6 samples.

Results

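The Trem and Siglec receptors are surface proteins through which macrophages and their relatives sense lipids, debris and sialylated glycans. Here they are 10 genes: the receptors Trem1, Trem2, Treml2 and Treml4, the adaptor Tyrobp, and the sialic acid-binding lectins Siglec1, Siglece, Siglecf, Siglecg and Cd33. They were chosen by name, with earlier results of these data known. Probe sets annotated to 1 of these symbols alone were read. This gave 10 of 41345 probe sets, 1 for each gene, out of 22180 genes with a probe set of their own. No filter on low values was applied, so all 10 were tested.

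The cells were RAW 264.7, a mouse macrophage-like line of tumour origin grown in culture. Both groups received a GapmeR, a locked nucleic acid antisense oligonucleotide through which RNase H cuts a matching RNA, at 50 nM with a lipid reagent, and RNA was taken after 48 h. In 3 samples the GapmeR had no target (Control), and in 3 it was directed at the macrophage long noncoding RNA Mist (Mist-targeted). The comparison asks whether these receptors differ when Mist is targeted. It rests on 1 cell line, 1 time point and the labels, since 0 probe sets were annotated as Mist and the level of the target was not analysed here.

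Most Trem receptors have short tails and signal by pairing with Tyrobp, also called DAP12, whose immunoreceptor tyrosine-based activation motif (ITAM) recruits the kinase Syk. Most CD33-related Siglecs carry inhibitory motifs (ITIMs) that recruit phosphatases and so restrain the same kinases. Siglec1, also called sialoadhesin or CD169, lacks such a motif, acts in adhesion and capture of sialylated particles, and is a textbook interferon-inducible macrophage gene.

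Values are log2 expression, so a difference of 1 is a doubling; array medians lay between 4.47 and 4.50 and upper quartiles between 6.19 and 6.24. Arrays correlated at 0.988 to 0.991 within groups and 0.986 to 0.989 between groups. Of 8 macrophage markers, 7 (Adgre1, Cd68, Csf1r, Itgam, Cd14, Lyz2 and Spi1) read above the upper quartile of every array, and Mertk, a receptor for dying cells, did not. Of the markers of lymphocytes (B, T and NK), neutrophils, eosinophils and mast cells, dendritic cells, microglia and fibroblasts, 0 did. The mean level of the macrophage markers was 9.74 to 9.81 on the Control arrays and 9.74 to 9.83 on the Mist-targeted arrays.

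Among the 10 genes, Siglec1 rose with the Mist-targeted GapmeR and the other 9 did not pass the test. Cd33 read lower on every Mist-targeted array than on every Control array, by a smaller amount that missed the threshold. Trem2 and Tyrobp overlapped between the groups, and the remaining 6 genes read near or below the array medians in both. At an adjusted p under 0.05 (limma, Benjamini-Hochberg over all probe sets), 1 of the 10 genes was called. Of all genes 0.415% were called, 0.212% rising and 0.203% falling. The 10 were chosen with earlier results of these data known, so these shares are a description and not a test. The median difference of the 10 was -0.0038 on the log2 scale, beside 0.0069 over all genes.

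**Figure D1:**
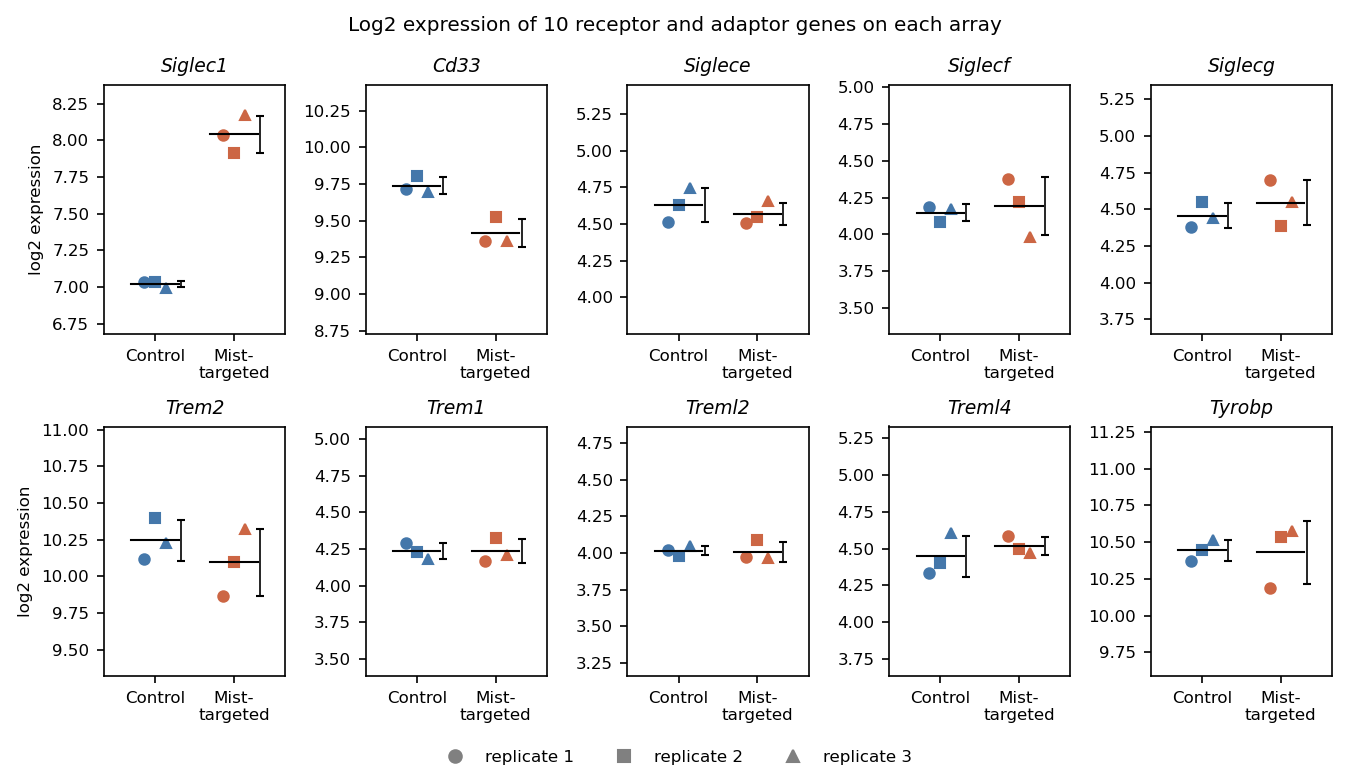
Log2 expression (vertical axis) of each gene on the 3 Control and 3 Mist-targeted arrays; every panel spans the same range in log2 units, around its own mean, lines are group means, bars are SD and marker shapes are replicate numbers. The Siglec1 values lie near 7.0 in Control and 8.0 in Mist-targeted samples, Cd33 is lower without overlap, and the groups overlap in the other 8 panels.

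Siglec1 read 7.033, 7.032 and 6.997 on the 3 Control arrays and 8.038, 7.913 and 8.170 on the 3 Mist-targeted arrays. The groups were apart by far more than the spread within either, and the Control arrays were nearly alike. Its mean went from 7.02 ± 0.021 to 8.04 ± 0.13 (SD, n = 3 each), a log2 difference of 1.02 ± 0.093 (SE; 95% confidence interval 0.80 to 1.24; limma, adjusted p = 0.016). That is a 2.03-fold rise, with an interval of 1.74 to 2.36. Among the 22180 genes it ranked 17 by p value and 18 by size of rise, and its probe set was 17391834. In bulk RNA, more cells with a transcript and more transcript per cell cannot be told apart.

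The size of the Siglec1 rise was steady when single arrays were left out, and its call was not. The difference stayed between 0.95 and 1.08 in those 6 fits. It passed the threshold without Mist-targeted replicate 2 (limma, adjusted p = 0.033), and without Control replicates 1, 2 and 3 or Mist-targeted replicates 1 and 3 the adjusted p was 0.090, 0.102, 0.093, 0.081 and 0.085.

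**Figure D2:**
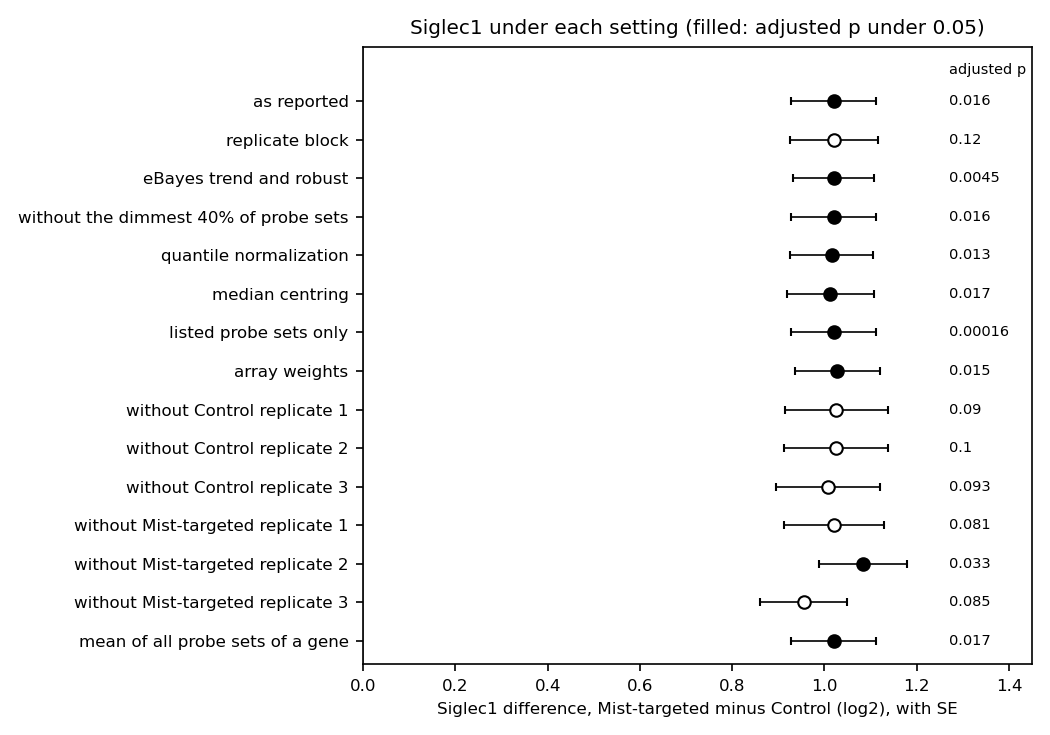
Siglec1 difference, log2 value in Mist-targeted minus that in Control samples (horizontal axis), with its SE under each setting of the analysis (rows); the numbers at the right are adjusted p values and filled points lie under 0.05. All points lie between 0.95 and 1.08, while the adjusted p ranges from 0.00016 to 0.12.

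The genes whose pattern over the 6 arrays was most like that of Siglec1 were Slamf9, a receptor of the SLAM family (Pearson r = 0.996), Cfb, complement factor B (0.996), and the chemokine Ccl2 (0.996). They were taken by r from 11656 genes with a mean above the median of all probe sets, of which 18 had r over 0.99. With 6 arrays in 2 groups, such an r includes the difference between groups, and these genes share their arrays with Siglec1. Cfb differed by 1.44 and Ccl2 by 1.60 (limma, adjusted p = 0.0053 for each), and Slamf9 by 0.52 (adjusted p = 0.077).

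In the gene order of RefSeq (assembly GRCm38.p6), Siglec1 lies apart from the other Siglecs, with Adam33 and Hspa12b as its nearest protein-coding neighbours. Adam33, a metalloprotease gene, differed by 0.26 ± 0.12 and Hspa12b, a heat shock protein gene, by 0.020 ± 0.11 (SE; limma, adjusted p = 0.54 and 0.98). The next genes outward, Gfra4 and 1700037H04Rik, differed by 0.078 ± 0.12 and 0.34 ± 0.079 (adjusted p = 0.91 and 0.17). None of these 4 neighbours passed the test.

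Cd33 gives the CD33-related Siglecs their name, and whether the mouse protein carries an inhibitory motif was not examined here. Cd33 read 9.71, 9.80 and 9.70 on the Control arrays and 9.36, 9.53 and 9.36 on the Mist-targeted arrays. The groups did not overlap, which was true of 20.0% of all genes and of 2 of these 10. Its mean was 9.74 ± 0.057 in Control and 9.42 ± 0.095 in Mist-targeted samples (SD, n = 3 each). The difference of -0.32 ± 0.088 (SE; 95% confidence interval -0.53 to -0.12) had an unadjusted p of 0.0074 and an adjusted p of 0.24 (limma). Cd33 was thus 1.25-fold lower, short of the threshold, and differences ran from -0.38 to -0.29 in the 14 alternative fits. Leaving out 1 array could not change its sign, since the groups did not overlap.

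Siglece, an inhibitory receptor of neutrophils and macrophages, read 4.51, 4.63 and 4.75 on the Control arrays and 4.51, 4.55 and 4.65 on the Mist-targeted arrays. Siglecf, best known from eosinophils and alveolar macrophages, read 4.19, 4.08 and 4.17 against 4.38, 4.22 and 3.98. Siglecg, a restraint on B cell receptor signalling, read 4.38, 4.55 and 4.44 against 4.70, 4.39 and 4.55. In all 3 the groups overlapped, and every value lay under the upper quartile of its array. Their differences were -0.060 ± 0.095, 0.045 ± 0.11 and 0.090 ± 0.11 (SE; limma, adjusted p = 0.91, 0.95 and 0.87). These intervals ran from -0.28 to 0.34 in all, and the Siglec1 difference lay outside each of them. They cover the readings alone, and at such low readings a change in transcript may be understated.

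Background was not measured in these values, so readings near or below the array median cannot be told from a gene that is not expressed, and a change there may be understated. Related Siglec and Trem sequences may also share probes, which was not checked here.

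**Figure D3:**
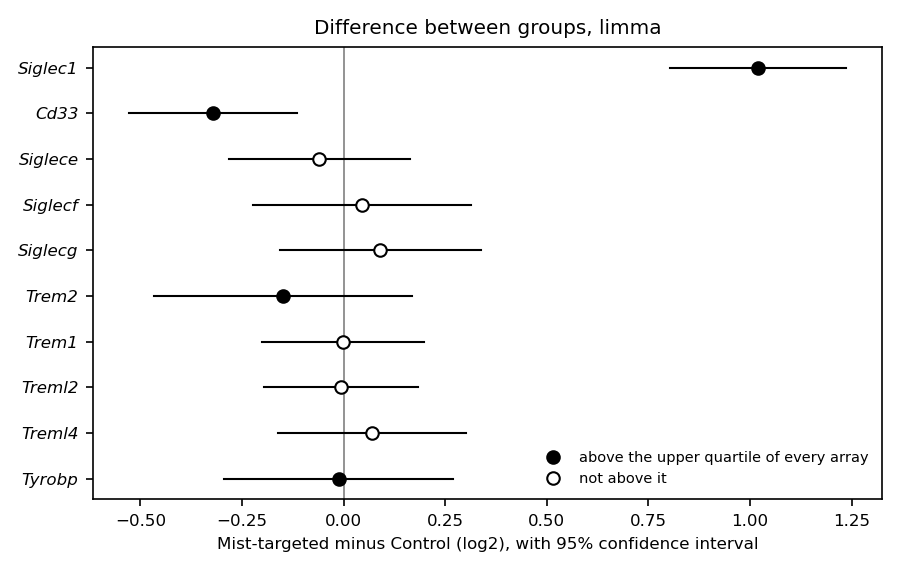
Difference of each gene, log2 value in Mist-targeted minus that in Control samples (horizontal axis), with its 95% confidence interval from limma; filled points are the 4 genes above the upper quartile of every array and open points the other 6. The Siglec1 interval, 0.80 to 1.24, and the Cd33 interval, -0.53 to -0.12, leave out 0, and the other 8 include it.

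Trem2, a lipid-binding receptor that supports phagocytosis in microglia and the fusion of osteoclast precursors, read 10.12, 10.39 and 10.23 on the Control arrays and 9.87, 10.10 and 10.32 on the Mist-targeted arrays. The groups overlapped, and replicate 1 of the Mist-targeted samples held the lowest value. The means were 10.25 ± 0.14 and 10.10 ± 0.23 (SD, n = 3 each). The difference was -0.15 ± 0.14 (SE; 95% confidence interval -0.47 to 0.17; limma, adjusted p = 0.81), and leaving out each array in turn moved it between -0.26 (without Mist-targeted replicate 3) and -0.034 (without Mist-targeted replicate 1).

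Tyrobp, the adaptor that Trem1, Trem2 and Treml4 use to signal, read 10.37, 10.44 and 10.52 on the Control arrays and 10.19, 10.54 and 10.57 on the Mist-targeted arrays. The same Mist-targeted array was lowest and the other 2 were above every Control array. The difference was -0.013 ± 0.12 (SE; 95% confidence interval -0.30 to 0.27; limma, adjusted p = 0.99), and leaving out each array in turn moved it between -0.083 (without Mist-targeted replicate 3) and 0.11 (without Mist-targeted replicate 1). Against the Control mean, the 3 Mist-targeted arrays stood at -0.38, -0.15 and 0.079 for Trem2 and at -0.26, 0.092 and 0.13 for Tyrobp. Why that array was lowest for both was not tested.

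Trem1, which amplifies inflammatory responses in neutrophils and monocytes, read 4.29, 4.23 and 4.18 on the Control arrays and 4.17, 4.32 and 4.21 on the Mist-targeted arrays. Treml2, a family member without a firmly assigned ligand, read 4.02, 3.98 and 4.05 against 3.97, 4.09 and 3.96. Treml4, which binds dead cells, read 4.332, 4.404 and 4.603 against 4.585, 4.494 and 4.471. Trem1 and Treml2 stood below the median of each array on all 6 arrays, and Treml4 above it on 4 of them. Their differences were -0.00098 ± 0.086, -0.0067 ± 0.081 and 0.070 ± 0.099 (SE; limma, adjusted p = 0.998, 0.99 and 0.90), with groups that overlapped in each case.

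The Trem genes lie side by side on 1 chromosome in RefSeq, in the order Trem1, Trem3, Treml4, Treml2, B430306N03Rik, Trem2 and Treml1. Across this run 0 genes passed the test. The genes in it that are not among the 10 differed by 0.20 ± 0.098 (Trem3), 0.00089 ± 0.12 (B430306N03Rik) and 0.016 ± 0.13 (Treml1; SE; limma, adjusted p = 0.60, 0.999 and 0.99). Next to Tyrobp lies Hcst, which encodes the related adaptor DAP10, and it differed by -0.25 ± 0.13 (adjusted p = 0.63).

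Promoter sequences from RefSeq (GRCm38.p6) covered 7 of the 10 genes, without Siglec1, Tyrobp and Treml2. The 250 bases before the start are shown for Cd33 and Trem2, the genes of the 7 that read above the upper quartile of every array, and capitals mark GAGGAA on either strand (TTCCTC when read on the strand printed), the core of the site bound by the macrophage factor PU.1. The Cd33 window is chr7:43533172-43533421 on the minus strand and the Trem2 window is chr17:48346151-48346400 on the plus strand, both written 5′ to 3′ along the gene. The RefSeq record of Cd33 extends further upstream than the start used here.
Cd33: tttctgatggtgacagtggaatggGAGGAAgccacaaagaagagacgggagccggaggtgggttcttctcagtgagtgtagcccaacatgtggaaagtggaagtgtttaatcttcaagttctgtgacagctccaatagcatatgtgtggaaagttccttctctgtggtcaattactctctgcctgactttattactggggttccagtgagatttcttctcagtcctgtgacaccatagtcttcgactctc
Trem2: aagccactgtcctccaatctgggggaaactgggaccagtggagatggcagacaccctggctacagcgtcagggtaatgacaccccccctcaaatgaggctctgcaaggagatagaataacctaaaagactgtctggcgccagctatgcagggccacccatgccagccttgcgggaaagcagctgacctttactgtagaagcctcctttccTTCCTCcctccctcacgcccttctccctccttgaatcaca
The match begins at position -226 from the start in Cd33 and at position -40 in Trem2. All 7 genes held it in at least 1 entry, Siglecg in 1 of its 2 entries. Of 32851 promoter entries of the same length, each counted singly, 23.3% did. The interferon-stimulated response element core is a pair of GAAA runs with any 2 bases between them. Searched on both strands, it was found in 0 of the 7 genes and in 2.98% of all promoter entries. These are matches of letters and show no binding.

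Around these receptors, 86 related genes were listed by role, and 81 had a probe set of their own. None of the 81 passed over all probe sets (limma), beside 0.415% of all genes. An unadjusted p under 0.05 was found for 18 of them, or 22.2%, beside 11.0% of all genes. The groups did not overlap in 28 of the 81, or 34.6%, beside 20.0% of all genes. Many of the 81 read above the upper quartile of every array, from 0 of 6 other Trem and Siglec genes to all 19 ITAM kinases and adaptors. Shares among genes of like brightness were not compared. In direction the 81 were mixed, with 44 above 0. The lists were drawn up with earlier results of these data known, so these shares describe the lists and test nothing.

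Among adaptors and receptors that pair with Tyrobp or with the Fc receptor gamma chain, the members with the smallest p lay in both directions. Clec4e, or Mincle, a receptor for mycobacterial cord factor and dead cells, went from 10.46 to 9.79, a difference of -0.67 ± 0.098 (SE, n = 3 each; limma, adjusted p = 0.056). Clec4n, or Dectin-2, a receptor for fungal mannans, went from 4.99 to 5.67, a difference of 0.68 ± 0.11 (adjusted p = 0.078). In both, the groups did not overlap. Both receptors signal through the gamma chain gene Fcer1g, which was named for that role. Fcer1g differed by 0.074 ± 0.076 (SE; limma, adjusted p = 0.84), and its groups did not overlap either. The median of the 10 genes was 0.064.

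Of the 19 kinases and adaptors downstream of ITAM receptors, all of which read above the upper quartile of every array, 0 passed and 9 were above 0, with a median of -0.032. Lcp2, the scaffold SLP-76, differed by -0.30 ± 0.089 and Pik3cd, a catalytic subunit of phosphoinositide 3-kinase, by 0.27 ± 0.083 (SE; limma, adjusted p = 0.28 and 0.32). Syk, the kinase that Tyrobp recruits, was chosen for naming for that role and differed by -0.15 ± 0.12.

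Of the 17 phosphatases, brakes and other ITIM receptors, 0 passed and 12 were above 0, with a median of 0.075. Dok2, an adaptor that dampens tyrosine kinase signalling, differed by 0.41 ± 0.092, and Pilra, an inhibitory receptor for sialylated proteins, by 0.50 ± 0.11 (SE; limma, adjusted p = 0.16 and 0.17). The Control mean of Pilra was under the array medians. Ptpn6, the phosphatase SHP-1 that ITIMs recruit, was named for that role and differed by 0.093 ± 0.084.

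Of the 18 genes listed for sialic acid, the ligand part of Siglecs, 0 passed and 9 were on each side of 0, with a median of 0.0056. Most of them make, carry, attach or remove it, and the list also holds Spn, a sialylated surface protein gene. St6gal1, which adds sialic acid in alpha-2,6 linkage, went from 6.92 to 6.30, a difference of -0.63 ± 0.12, and Nanp, a phosphatase of sialic acid synthesis, from 6.92 to 7.37, a difference of 0.45 ± 0.097 (SE; limma, adjusted p = 0.098 and 0.15). In both genes the groups did not overlap. Nanp had 2 probe sets, and its values here are from that with the higher mean.

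Of 11 genes for Trem2 ligands and the proteases that shed and clear its stalk, 0 passed, with a median of 0.0054. The lipoprotein gene Apoa1 differed by 0.28 ± 0.10 and Clu, or clusterin, by -0.24 ± 0.12 (SE; limma, adjusted p = 0.39 and 0.61). Of 6 other Trem and Siglec genes 0 passed, with a median of -0.026, and Trem3 and the myelin Siglec gene Mag, at -0.21 ± 0.12 (adjusted p = 0.65), had the smallest p values.

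**Figure D4:**
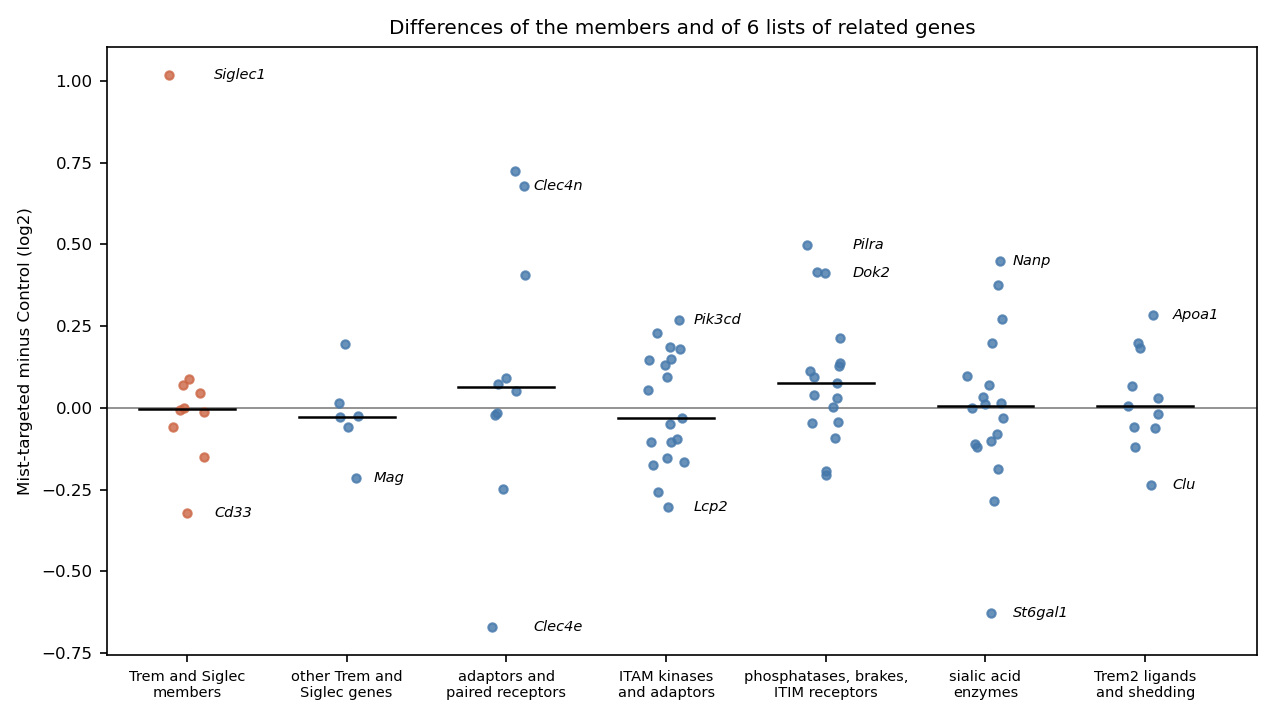
Differences, log2 value in Mist-targeted minus that in Control samples (vertical axis), of the 10 Trem and Siglec genes (left) and of 6 lists of related genes; each point is 1 gene and bars are list medians. Siglec1, at 1.02, is the highest point, and Clec4e, at -0.67, the lowest.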

How the data were processed

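Values deposited by the authors are on the log2 scale, with a column for each of the 6 arrays. Per the submitters' processing notes RMA and Partek were used, without versions or roles; array design, genome build and settings: not given in the sources used here. As a method RMA aligns the arrays' distributions, so a shift of most transcripts in 1 direction would be reduced. Values were used as deposited; 0 columns stayed unused.

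Names of probe sets came from the platform annotation: 23521 had 1 gene symbol, 1814 several, and 16010 were not listed. All 10 genes matched RefSeq (GRCm38.p6) by gene ID. Related genes and markers were read at the probe set with the highest mean.

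Differences come from limma 3.58.1 (R 4.3.3; lmFit, then eBayes; a two-sided test with the group alone in the model; Benjamini-Hochberg over 41345 probe sets; threshold 0.05), tested on simulated data. With 3 arrays against 3, the smallest p of an exact permutation test is 0.1. Nothing in the labels says that replicates are separate cultures, so p values may measure technical spread. Tables and plots used Python 3.11.15, pandas 2.3.3 and matplotlib 3.10.9.

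Members and lists were chosen with earlier results of these data known. Named genes are all 10 members and, per list, up to 4 called or else the 2 with the smallest p, plus the 3 most like a called member; exceptions are marked. Alternatives were the replicate block, eBayes with trend and robust, a filter on dim probe sets, 2 normalizations, listed probe sets only, array weights, gene means and leaving out each array.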

Additional observations from a re-analysis of the deposited data

How the results depend on the processing

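Whether the replicate numbers pair the samples could not be settled. Deviations of same-numbered arrays correlated at 0.20, 0.096 and 0.033, and 5 of 6 arrays, all but Control replicate 3, correlated best with their own number. Not all of the 3 correlations were over 0.1, and the model was left without a replicate block. With a replicate block, 0 probe sets, 0 of the 10 genes and 0 related genes were called, against 105, 1 and 0 without it, and Siglec1 kept its difference of 1.02 with an adjusted p of 0.12. The probe sets called were 287 with eBayes trend and robust, 161 without the dimmest 40%, and 721 among listed probe sets only. Related genes called were 1 with trend and robust, 1 without the dimmest 40% and 1 with array weights, each time Clec4e, and 7 among listed probe sets only, where Clec4e and St6gal1 were lower and Clec4n, Dok2, Pilra, Clec4a2 and Nanp higher. Leaving out 1 array gave 2 to 40 probe sets called, 0 to 1 of the 10 genes and a Siglec1 difference of 0.95 to 1.08. Siglec1 kept its sign in 14 of 14 alternatives and was called in 8. Leaving out 1 array could not change that sign, since its groups did not overlap. Among the other 9 genes 0 were called under any alternative run; the signs of Trem1, Treml2, Tyrobp and Siglecf changed in some. The causes were not tested. Precision is limited by 3 arrays a group: the median SE over all genes was 0.10, and no background measure was used for dim probe sets.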
